A study of Triticum aestivum with 45 samples.

Results

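A group of 94 wheat genes rose at least 8-fold between unsprayed spikelets and spikelets taken 8 h after a water spray, in each of 3 genotypes, while staying within a factor of 2 of that level after a spray of methyl jasmonate (MeJA). They were picked from 110790 gene identifiers by their CPM (the count of a gene scaled to a common library total). In every genotype the mean after water had to reach 5 CPM and 8 times the untreated mean, and the ratio of the MeJA mean to the water mean had to lie between 0.5 and 2. The choice used 27 libraries (untreated, water and MeJA). The other 18 libraries, from spikes sprayed with salicylic acid (SA) or ethephon, played no part in it. The genes are called the rise set below. The window allows differences of up to 2-fold, so the genes cannot be described as unaffected by MeJA. In edgeR's quasi-likelihood test over the 3 genotypes, 37 of the 94 differed between MeJA and water, beside 45.4% of all tested genes.

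Bread wheat is a hexaploid whose genes mostly come in copies on the related A, B and D subgenomes. Its spike carries many spikelets, each with florets whose anthers open at anthesis. Jasmonates act in wounding, defence and flower development, and SA acts mainly in defence against pathogens. Ethephon breaks down in plant tissue to the gas hormone ethylene. Floral transcripts also follow the time of day and the opening of the floret, so a sample taken hours later differs from the first one even where no hormone was applied.

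Superb, a Canadian hard red spring cultivar, was compared with a pair of its doubled haploid relatives. GS-1-EM0040, here DH1, has the pedigree 'CIMMYT11'/'Superb'*2. The other line, here DH2, is GS-1-EM0168 with the pedigree 'CM82036'/'Superb'*2. Both therefore share part of their genome with Superb, and each is a single line. Spikes at anthesis were left unsprayed and sampled at 0 h, or were sprayed until run-off with water, MeJA, SA or ethephon and sampled at 8 h, with each chemical at 100 µM in water. Each of the 15 combinations had 3 libraries, and the labels give 5 plants for a treatment group without saying whether the libraries came from separate plants, so that p-values measure the spread between these libraries, which may be technical. Untreated spikelets differ from all others in the hour of sampling as well as in the spray, and time, time of day and the water spray cannot be told apart. A spikelet is a mixture of tissues, and more cells of a type and more RNA per cell cannot be told apart either. The files do not pair identifiers with gene names, and 0 identifiers matched the reference table, so genes are given by identifier with no role, and the tissue could not be checked against marker genes.

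The libraries held between 6446374 and 17940396 counts (median 11251553). A pair of ethephon libraries stood apart. In Superb ethephon replicate 1, 33 genes that are expressed almost only in DH1 reached 25.8% of their DH1 level, where the remaining 14 libraries of Superb held 0.521 to 1.32%. Likewise 35 genes expressed almost only in DH2 reached 14.3% of their DH2 level in replicate 1 of ethephon in DH1, against 0.509 to 1.28% in the remaining 14. In the Superb library, 1018 genes raised by MeJA in DH1 and DH2 held 2.80% of counts, between the 0.719 to 1.25% of the other 8 h libraries without MeJA and the 6.09 to 10.9% of MeJA libraries. The results that rest on ethephon are also given without these libraries, except for values of single genes, summed levels and ranks. Among the MeJA libraries, replicate 1 held the smallest share of the 1018 genes in every genotype. It was 6.09% in Superb, 6.84% in DH1 and 6.18% in DH2, against 9.03 to 10.9% in the other MeJA libraries. The choice of the genes and the tests of MeJA used all MeJA libraries.

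The rise set held a far larger share of all counts at 8 h than at 0 h. The share was 0.0381 to 0.0841% in the 9 untreated libraries and 0.727 to 1.24% in the 27 libraries taken 8 h after water, SA or ethephon. In the 9 MeJA libraries it was 0.674 to 0.959%. Summed over the 94 genes, Superb went from 631 ± 233 CPM untreated to 9414 ± 393 CPM after water (SD, n = 3 each), DH1 from 579.6 ± 62.9 to 8354 ± 1504 CPM, and DH2 from 767 ± 39.7 to 10517 ± 855 CPM. After MeJA the sums were 7727 ± 505, 7187 ± 402 and 8269 ± 1195 CPM in the same order. The 3 MeJA libraries lay below the 3 water libraries in Superb and in DH2, and the groups overlapped in DH1. With libraries scaled by the same totals, all tested genes also had a negative median log2 fold change after MeJA. It was -0.16 in Superb, -0.21 in DH1 and -0.23 in DH2, so the lower sums cannot be called particular to the set. The sums follow from the choice of the genes and are a description.

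**Figure D1:**
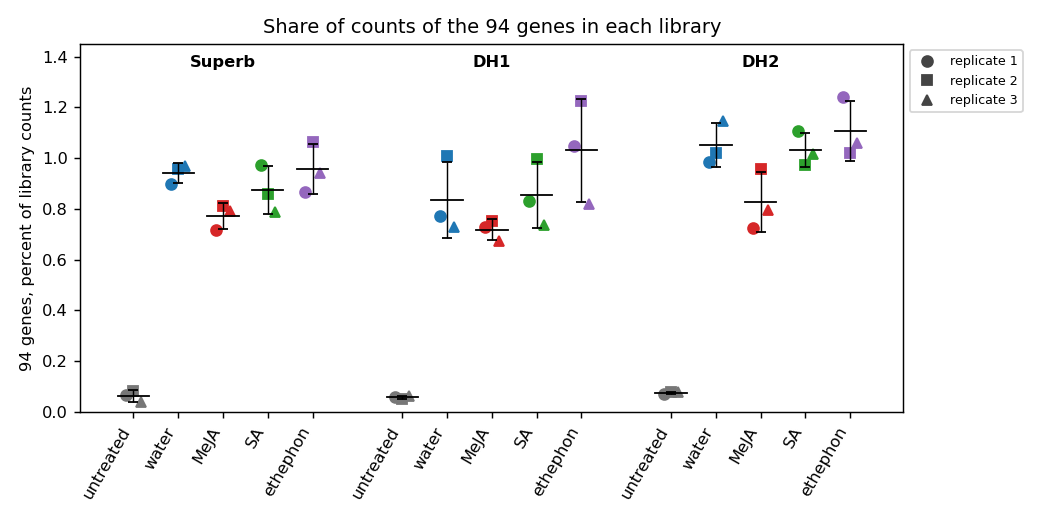
Share of library counts held by the 94 genes of the rise set, in percent, for each of the 45 libraries by genotype and condition. Points are libraries, with symbols for the replicate number, and bars are mean ± SD of 3 libraries. The untreated libraries lie at 0.0841% or below and all others at 0.674% or above, and replicate 2 is the highest DH1 library after water, SA and ethephon.

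The rise itself was a description too, since it chose the genes. The ratio of water to untreated means had a median of 15.2 in Superb, 17.3 in DH1 and 16.2 in DH2, with lowest values of 8.40, 8.10 and 8.22. In the fit across all genes the 94 genes were higher after water in each genotype by edgeR's quasi-likelihood test at adjusted p under 0.05, where 13.9, 13.1 and 12.9% of the 63091 tested genes were higher in Superb, DH1 and DH2, and the selection fixed this count. All 94 genes passed the filter on low counts.

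The genes started from different levels. In all 3 genotypes 29 of them had an untreated mean under 1 CPM, and 26 had one of at least 5 CPM, so that a large minority were already transcribed at 0 h. None had 0 counts over the 3 untreated libraries of any genotype. After water, 22 genes reached 100 CPM or more in all genotypes and 33 stayed under 20 CPM. The water means of the 3 genotypes lay within 1.5 times of each other for 78 of the 94 genes and over 2 times apart for 4.

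TraesCS4D01G298300 on chromosome 4D had the largest fitted rise. It lay at 0.263, 0.478 and 0 CPM in the untreated Superb libraries and at 160, 134 and 165 CPM after water. In DH1 it went from 0.0868, 0 and 0 CPM to 136, 182 and 94.3 CPM, and in DH2 from 0.207, 0 and 0 CPM to 133, 126 and 156 CPM. The gene was thus close to silent before and well transcribed at 8 h in every library. The untreated DH1 level rests on 1 count and gives a ratio of summed CPM of 5899 with a 95% exact counting interval of 1058 to 233029, and the DH2 level rests on 2 counts with a ratio of 2544 and an interval of 704 to 21012. TraesCS5A01G049400 on 5A followed, at 0 to 1.02 CPM in the 3 untreated Superb libraries and 57.3, 74.2 and 73.4 CPM after water. Its DH1 libraries went from 0.0868, 0.178 and 0.167 CPM to 44.6, 73 and 46.7 CPM, and its DH2 libraries from 0.621, 0.697 and 0.121 CPM to 80.7, 78.3 and 94.4 CPM.

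TraesCS4A01G245100 and TraesCS4B01G070300 took the most reads, which also depends on transcript length. TraesCS4A01G245100 was at 44.1, 63.1 and 39.9 CPM in untreated Superb and at 1004, 1068 and 1081 CPM after water, with like values in the other genotypes (961, 985 and 963 CPM after water in DH1, and 1072, 1039 and 1207 CPM in DH2). TraesCS4B01G070300 was at 91.1, 110.1 and 36.1 CPM untreated and 863, 995 and 1173 CPM after water in Superb, and reached 804 ± 72.4 CPM in DH1 and 1028 ± 116 CPM in DH2 (SD, n = 3 each). The 5 genes with the most reads held 44.0% of the summed water CPM of the set.

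The libraries outside the choice showed the rise as well. For all 94 genes, each of the 3 SA and 3 ethephon libraries lay above each of the 3 untreated libraries in every genotype, which held for 6.12% of the 110790 genes listed. That base includes 17811 genes with 0 counts throughout, and the share among genes of at least 5 CPM after water is not given. The mean after SA was at least 8 times the untreated mean in all genotypes for 89 of the 94 genes, and the mean after ethephon for 92, or 93 without the ethephon libraries that stood apart. By edgeR's quasi-likelihood test on the mean of SA and ethephon against untreated, 94 of 94 genes were higher in each genotype at adjusted p under 0.05, where 16, 16.2 and 15.1% of tested genes were higher in Superb, DH1 and DH2. The untreated libraries in this test are those the choice used, so it is new on the sprayed side only. The median log2 fold change of the set was 3.83 in Superb, 4.20 in DH1 and 3.87 in DH2, beside 0.00, 0.01 and -0.03 over all tested genes. Without the ethephon libraries that stood apart all 94 were again higher in each genotype, with medians of 3.89, 4.22 and 3.87.

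For TraesCS4D01G298300 the levels were 119.9, 123 and 119 CPM after SA and 129.8, 198 and 176 CPM after ethephon in Superb. In DH1 they were 155, 185 and 103 CPM after SA and 201, 246 and 132 CPM after ethephon, and in DH2 they were 93.8, 150.4 and 129 CPM and 147, 128 and 154 CPM. All 18 values lay far above the untreated libraries, and the SA and ethephon values overlapped in DH1 and DH2 but not in Superb.

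No difference between SA and water was detected for any gene of the set. The fold change of SA against water, averaged over genotypes, ran from -0.40 to 0.41 on the log2 scale, with a median of -0.02 and standard errors of 0.12 to 0.34. None of the 94 genes passed adjusted p under 0.05 in edgeR's quasi-likelihood test, while 0.483% of tested genes did, and 5 of the 94 had an unadjusted p under 0.05. DESeq2 also called 0. The water libraries are those the choice used, and they are shared with the comparisons of ethephon and MeJA with water. In CPM, the SA mean lay within 0.8 to 1.25 times the water mean in all genotypes for 62 genes, and within 0.5 to 2 times for all 94.

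Ethephon libraries ran slightly above water for most of the set, without a gene passing the test. The log2 fold change of ethephon against water was positive for 72 of the 94 genes, with a median of 0.15 and a range of -0.35 to 0.71, beside 32780 positive of 63091 tested genes and a median of 0.01. By edgeR's quasi-likelihood test 0 of the 94 genes and 0% of tested genes were called, with 16 of the 94 at an unadjusted p under 0.05, and DESeq2 called 0 of the 94. The median was 0.11 in Superb, 0.25 in DH1 and 0.08 in DH2, and without the ethephon libraries that stood apart it was 0.17 over the genotypes, with 77 genes positive. Ethephon means lay within 0.5 to 2 times water in all genotypes for 90 genes and within 0.8 to 1.25 times for 45, or for 89 and 40 without those libraries.

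**Figure D2:**
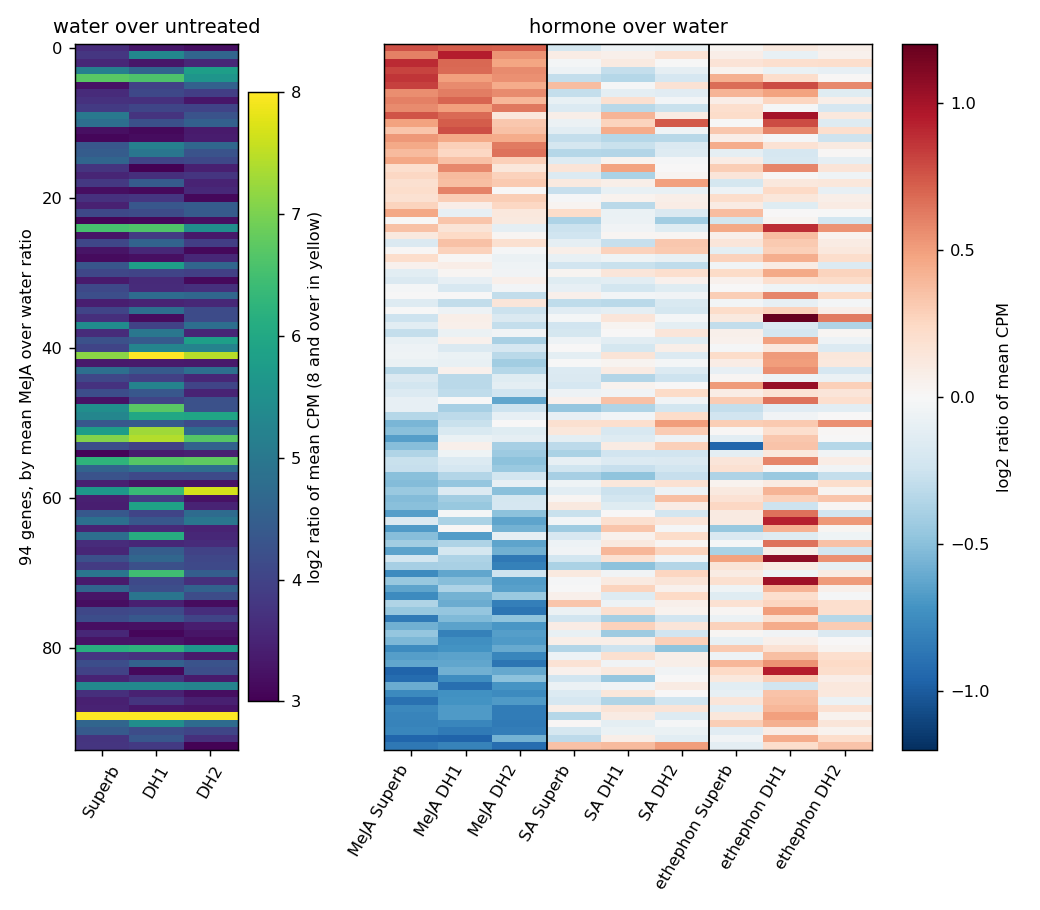
Log2 ratios of mean CPM for the 94 genes (rows, ordered by the mean ratio of MeJA to water), with water over untreated at the left and each hormone over water at the right, by genotype. The MeJA columns run from red at the top to blue at the bottom by the ordering, the SA columns are pale, and among the ethephon columns that of DH1 is the reddest. Ratios beyond the scale have its end colours.

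The comparison of SA with ethephon used no library of the choice. Most of the set lay lower after SA than after ethephon, by small amounts. The log2 fold change averaged over genotypes was negative for 77 of the 94 genes, with a median of -0.19 and a range of -0.77 to 0.38, while 28195 of the 63091 tested genes were positive and their median was -0.02. In the genotypes taken singly 0 of the 94 genes were called by edgeR's test, where 0.138, 0.0777 and 0.0317% of tested genes were in Superb, DH1 and DH2, with 4, 15 and 2 of the 94 at an unadjusted p under 0.05. The medians there were -0.16 in Superb, -0.33 in DH1 and -0.11 in DH2. Without the ethephon libraries that stood apart, 83 genes were negative and the median was -0.22. These counts describe the set and carry no test of their own. Of the 201 genes that rose at least 8-fold in every genotype, whatever MeJA did, the 56 that MeJA put below 0.5 times water had a median of -0.19, the 17 it put above 2 times also -0.19, and the 34 that varied between genotypes -0.15. The difference between these groups was not tested.

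In the libraries themselves the shift was mostly within the spread. The 3 SA libraries lay below the 3 ethephon libraries for 10 of the 94 genes in Superb, 11 in DH1 and 4 in DH2, where this held for 3.81, 4.99 and 3.13% of the 31336 genes with a water mean of at least 5 CPM in every genotype. They lay above for 0, 1 and 2 genes, beside 4.75, 4.1 and 4.77%. Against the 2 ethephon libraries left in Superb and in DH1 without those that stood apart, the SA libraries lay below for 23 and 16 genes, beside 10.7 and 9.59% of those genes, and above for 0 and 1, beside 7.98 and 7.15%.

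By edgeR's quasi-likelihood test 2 of the 94 genes were lower after SA than after ethephon at adjusted p under 0.05, where 0.0317% of tested genes were, and 0 were higher, where 0.498% were. The test takes the libraries as independent. Across genotypes, deviations of libraries of equal number correlated above 0.1 in 9 of 9 pairs for SA and 5 of 9 for ethephon. The standard errors and adjusted p of this test may therefore be too small. Both calls held without the ethephon libraries that stood apart, at adjusted p = 0.0179 and 0.0404 by edgeR for TraesCS2B01G406600 and TraesCS2D01G386300. TraesCS2B01G406600 on 2B lay at 16, 16 and 12.9 CPM after SA and 19.2, 24.6 and 30 CPM after ethephon in Superb. Its DH1 libraries gave 15.5, 25.1 and 8.53 CPM after SA and 31.8, 36.6 and 25 CPM after ethephon, and its DH2 libraries 28.7, 21.8 and 23.8 CPM and 41.7, 30.8 and 47 CPM. The SA libraries were the lower ones without overlap in Superb and DH2, and SA replicate 2 reached the lowest ethephon library in DH1. The log2 fold change of TraesCS2B01G406600 was -0.77 (SE 0.16, adjusted p = 0.00872 by edgeR), or 1.70-fold. It stayed called with any 1 of the 18 SA and ethephon libraries left out.

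TraesCS2D01G386300 on 2D showed the same order. It lay at 26.9, 20.8 and 16.5 CPM after SA and 27.5, 34.7 and 41.9 CPM after ethephon in Superb, and at 22.4, 31.8 and 15.7 CPM and 41.3, 50.7 and 37.2 CPM in DH1. In DH2 it lay at 48.1, 26.4 and 35.5 CPM after SA and 66.4, 40.9 and 58 CPM after ethephon, where the groups overlapped. The log2 fold change of TraesCS2D01G386300 was -0.72 (SE 0.16, adjusted p = 0.023 by edgeR). The call was lost on leaving out any 1 of 8 libraries, namely SA replicate 1 or 3 or ethephon replicate 2 of DH1, SA replicate 2 or 3 or ethephon replicate 1 of DH2, and SA or ethephon replicate 3 of Superb, with an adjusted p of 0.0514 to 0.0819. Water sat near SA for both genes, at 17.9 ± 3.27 CPM in Superb, 16.8 ± 2.32 CPM in DH1 and 27.4 ± 5.22 CPM in DH2 for TraesCS2B01G406600 (SD, n = 3 each), and at 24.9 ± 5.39 CPM in Superb, 20.5 ± 3.48 CPM in DH1 and 37.7 ± 8.83 CPM in DH2 for TraesCS2D01G386300. A test of whether the difference between SA and ethephon varied with genotype called 0 of the 94 genes and 0% of tested genes, with 0 of the 94 at an unadjusted p under 0.05.

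**Figure D3:**
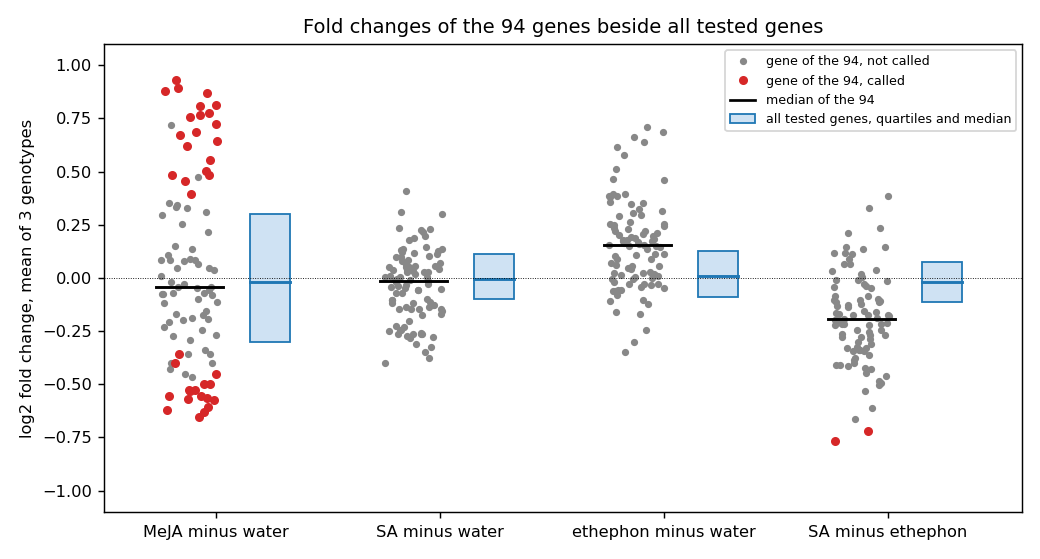
Log2 fold changes averaged over the 3 genotypes for the 94 genes (points, red where adjusted p was under 0.05 in edgeR), with the median of the 94 as a black line and the quartiles and median of all 63091 tested genes as a blue box. The set is spread to both sides for MeJA, centred at -0.02 for SA against water, and shifted to a median of -0.19 for SA against ethephon.

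The choice used MeJA and water, so their difference is a description, and the share of the set called was near or below that of all tested genes. Averaged over genotypes, 20 of the 94 genes were higher after MeJA than after water and 17 were lower by edgeR's quasi-likelihood test at adjusted p under 0.05, beside 23.7 and 21.7% of tested genes. As for SA against ethephon, these averaged p-values may be too small, since MeJA libraries of equal number also deviated together across genotypes. In single genotypes 6 genes were higher in Superb, 8 in DH1 and 6 in DH2, beside 12.5, 16.3 and 14.3% of tested genes, and 1, 2 and 1 were lower, beside 9.58, 11.4 and 9.22%. Calls in any genotype covered 12 genes, of which 4 were higher in all 3 and 1 was lower in all 3, with no gene called in opposite directions. The fold change was positive in all genotypes for 31 genes, negative in all for 32 and of mixed sign for 31.

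The balance of higher and lower genes differed with the scaling. With the totals of the columns as library sizes in place of TMM, the median log2 fold change of all tested genes moved by -0.16 in Superb, -0.17 in DH1 and -0.23 in DH2, and by -0.19 over the genotypes. On that scale 14 of the 94 genes were higher and 30 lower after MeJA, beside 10220 and 24229 of the 63091 tested genes. Of the 94 fold changes, 64 were negative instead of 51. The CPM of the choice are on that scale, and there the MeJA mean was below the water mean in all genotypes for 53 genes and above it for 24, with median ratios of 0.857, 0.914 and 0.863 in Superb, DH1 and DH2.

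TraesCS4D01G344300 on 4D had the highest fold change after MeJA in the set. It lay at 493, 451 and 474 CPM after MeJA in Superb against 248, 289.9 and 292 CPM after water. In DH1 it lay at 396, 412 and 398 CPM against 249, 259 and 218 CPM, and in DH2 at 407, 399 and 384 CPM against 215, 239 and 272 CPM. All MeJA libraries were above all water libraries in each genotype, and the log2 fold change of TraesCS4D01G344300 was 0.93 (SE 0.14, adjusted p = 5.18e-07 by edgeR). SA and ethephon left it at 239.7 ± 20.2 and 283 ± 31.5 CPM in Superb (SD, n = 3), near water. TraesCS1D01G288300 on 1D came next at 0.90 (SE 0.18, adjusted p = 0.000102 by edgeR), with 10.2, 11 and 10.2 CPM after MeJA and 6.25, 6.38 and 8.02 CPM after water in Superb. It is also the gene nearest to the upper bound of the choice, with a DH1 ratio of 1.92.

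At the lower end stood TraesCS6A01G277600 on 6A and TraesCS4A01G245100. The former had a log2 fold change of -0.65 (SE 0.21, adjusted p = 0.00922 by edgeR), with 3.16, 5.7 and 4.81 CPM after MeJA against 7.46, 6.38 and 11 CPM after water in Superb. TraesCS4A01G245100, the gene with the most reads, was at 685, 526 and 622 CPM after MeJA in Superb, at 556, 551 and 507 CPM in DH1 and at 607, 671 and 584 CPM in DH2. Each of these lay below every water library of its genotype, and the log2 fold change of TraesCS4A01G245100 was -0.63 (SE 0.12, adjusted p = 6.3e-05 by edgeR). It was the 1 gene lower in all 3 genotypes taken singly. Its MeJA level was still far above the untreated one, at 611 ± 80 against 49 ± 12.4 CPM in Superb (SD, n = 3 each).

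The bounds of the choice cut through a continuum. The smallest rise inside was 8.10-fold and the largest just outside was 7.96-fold. The lowest water mean inside was 5.04 CPM, with 4.86 CPM just outside. The MeJA ratios nearest to the bounds were 0.515 inside and 0.490 outside at the low end, and 1.92 inside and 2.09 outside at the high end. With a rise of at least 4 times the rule finds 244 genes, and with 16 times 36.

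Genotype differences were tested on the mean of the SA and ethephon libraries, which the choice did not use. The genes themselves had to pass the rule in every genotype, which leaves out genes that are low or do not rise in any of them. Counts of calls below the share of all tested genes may follow from this and are a description. Between DH1 and Superb 0 of the 94 genes were called by edgeR's quasi-likelihood test, where 1.88% of tested genes were called, with 2 of the 94 at an unadjusted p under 0.05 and 0 calls by DESeq2. The log2 fold changes of DH1 against Superb ran from -0.70 to 0.50, with standard errors of 0.14 to 0.43. In DH2, 4 genes were higher than in Superb, where 1.76% of tested genes were, and 1 was lower, where 4.37% were. Against DH2, DH1 was lower for 2 genes, where 3.7% of tested genes were, and higher for 0, where 7.1% were. With the replicate number as a block, 8 genes were lower in DH1 than in DH2 in place of 2, beside 2652 of all tested genes. In the same fit 1 was lower in DH1 than in Superb in place of 0, beside 619 of all tested genes. That block was common to all conditions, while libraries of equal number went together across genotypes within a condition, a pairing that was not fitted. Without the ethephon libraries that stood apart, DH1 differed from DH2 for 2 genes and from Superb for 0, and DH2 was higher than Superb for 1 gene and lower for 1. Over all tested genes, 3421 were higher and 1938 lower in DH1 than in DH2, and 589 higher and 517 lower in DH1 than in Superb. In DH2, 926 were higher and 1964 lower than in Superb.

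TraesCS5B01G498100 on 5B stood out in DH2. It was at 165, 120.0 and 144 CPM after SA and 176, 130.3 and 130.5 CPM after ethephon in DH2. In Superb it was at 38.3, 11.8 and 31.3 CPM and at 27.9, 32.9 and 29.9 CPM, and in DH1 at 25.1, 30.2 and 26.5 CPM and at 56, 37.9 and 29 CPM. No DH2 library overlapped with the other genotypes. The log2 fold change of TraesCS5B01G498100 was 2.28 for DH2 against Superb (SE 0.27, adjusted p = 9e-08 by edgeR) and -2.07 for DH1 against DH2 (SE 0.27, adjusted p = 3.32e-07 by edgeR), and both calls held without any 1 library. Its other libraries, which the choice did use, had the same order at 6.88 ± 3.47 CPM untreated and 134 ± 24.6 CPM after water in DH2, against 0.8 ± 0.853 and 25.9 ± 9.45 CPM in Superb and 1.51 ± 0.213 and 20.5 ± 5.7 CPM in DH1 (SD, n = 3 each). DH2 thus started and ended higher.

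TraesCS7A01G545200 on 7A was also higher in DH2, at 568, 481 and 399 CPM after SA and 442, 463 and 434 CPM after ethephon. Superb gave 209, 221 and 117 CPM and 183, 208 and 218 CPM, and DH1 gave 129, 160.0 and 82.7 CPM and 182, 228 and 154 CPM. All 6 DH2 libraries exceeded all 12 others. The log2 fold change of TraesCS7A01G545200 was -1.56 for DH1 against DH2 (SE 0.38, adjusted p = 0.00447 by edgeR), called without any 1 library, and 1.21 for DH2 against Superb (SE 0.38, adjusted p = 0.0467 by edgeR). The latter was lost on leaving out any 1 of the 12 libraries, with an adjusted p of 0.0573 to 0.133, and by DESeq2 (0.0672). Its untreated libraries scattered widely, with 15.8, 18.8 and 0.626 CPM in Superb, 16.7, 4.71 and 2.45 CPM in DH1 and 44.3, 52 and 8.57 CPM in DH2.

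The remaining DH2 calls were close to the threshold. TraesCS2B01G406600 and TraesCS2D01G386300 were higher than in Superb by 0.65 (SE 0.19, adjusted p = 0.0347) and 0.67 (SE 0.20, adjusted p = 0.0362 by edgeR) on the log2 scale. Without the ethephon libraries that stood apart the adjusted p was 0.126 for both, and 9 and 8 of the 12 single omissions ended the calls. TraesCS4B01G337600 on 4B was lower in DH2, at 7.08, 12.9 and 8.78 CPM after SA and 6.88, 9.05 and 8.11 CPM after ethephon, against 14.4, 20.6 and 13.7 CPM and 11.2, 17.9 and 13.2 CPM in Superb. The groups overlapped by the DH2 SA library at 12.9 CPM, and the log2 fold change of TraesCS4B01G337600 was -0.85 (SE 0.23, adjusted p = 0.0168 by edgeR). Without SA replicate 1 of DH2, or SA or ethephon replicate 2 of Superb, its adjusted p was 0.0665 to 0.072.

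**Figure D4:**
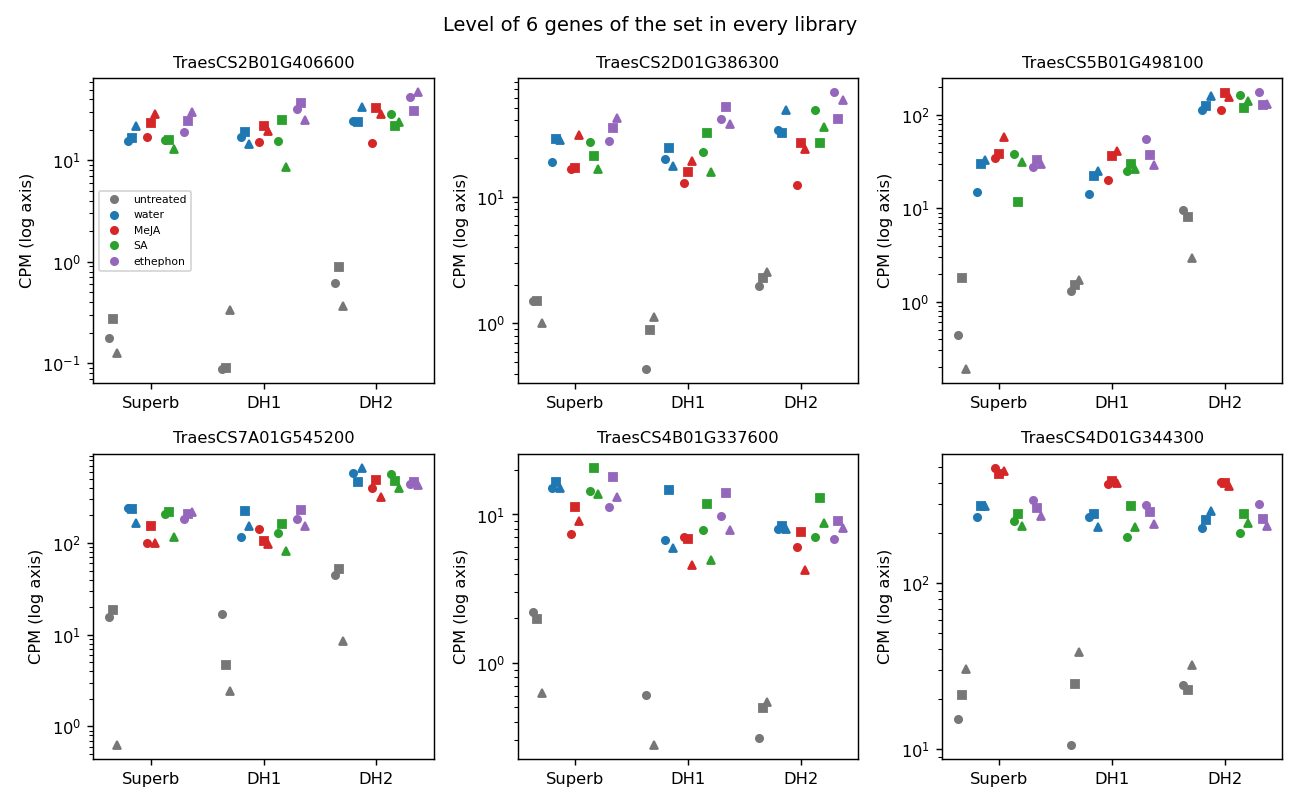
CPM on a log axis in every library for the 5 genes called between SA and ethephon or between genotypes and for the gene with the highest fold change after MeJA, by genotype, with colours for the condition and symbols for the replicate number (1 circle, 2 square, 3 triangle). A DH1 untreated library of TraesCS4B01G337600 at 0 CPM is not drawn. DH2 lies above the others for TraesCS5B01G498100 and TraesCS7A01G545200, and MeJA above water for TraesCS4D01G344300.

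Within DH1 most genes of the set ranked the libraries alike after water, SA and ethephon. Replicate 2 was the highest of the 3 for 92 of the 94 genes after water, for 86 after SA and for 82 after ethephon, but for 45 after MeJA and 14 untreated. Its share of counts was 1.01% after water against 0.772 and 0.727%, and 1.22% after ethephon against 1.05 and 0.821%. Replicate 3 was the lowest for 74, 66 and 73 genes after water, SA and ethephon. Totals differed too, with 15151252 counts in the second water library against 9973722 and 9519192, and the part of depth in this was not tested. Among the untreated libraries, Superb replicate 3 was the lowest for 78 genes, at 0.0381% of counts against 0.067 and 0.0841%. Replicate 2 was also the highest for 67 genes after ethephon and 57 after SA in Superb, and for 54 after SA in DH2. The same counts over all genes were not made, so these ranks cannot be called particular to the set.

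The DH1 comparisons depend on the DH1 libraries described above. Without replicate 2 of water, SA and ethephon in DH1, 17 genes were lower in DH1 than in DH2 in place of 2, beside 2060 of all tested genes. The median log2 difference went from -0.12 to -0.35, and 1 gene was lower in DH1 than in Superb, beside 468 of all tested genes. These libraries were the highest of their group for most of the set, so leaving them out lowers the DH1 levels of these genes. The direction of the shifts against DH2, Superb and MeJA was thus fixed by the omission, and they are a description. The median of DH1 against Superb went from -0.01 to -0.26, with 13 genes positive in place of 44. Leaving out SA replicate 2 of DH1 alone gave 9 genes lower than in DH2. The comparison of SA with ethephon kept its 2 calls and a median of -0.23, with 74 genes negative. For MeJA against water within DH1, 12 genes were higher in place of 8, beside 8716 of all tested genes, and 2 were lower as before, beside 6197. The median went from 0.02 to 0.38, with 66 genes positive in place of 47. Averaged over the genotypes, 22 genes were higher and 13 lower after MeJA, beside 14265 and 13728 of all tested genes, and the median was 0.06 in place of -0.04.

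**Figure D5:**
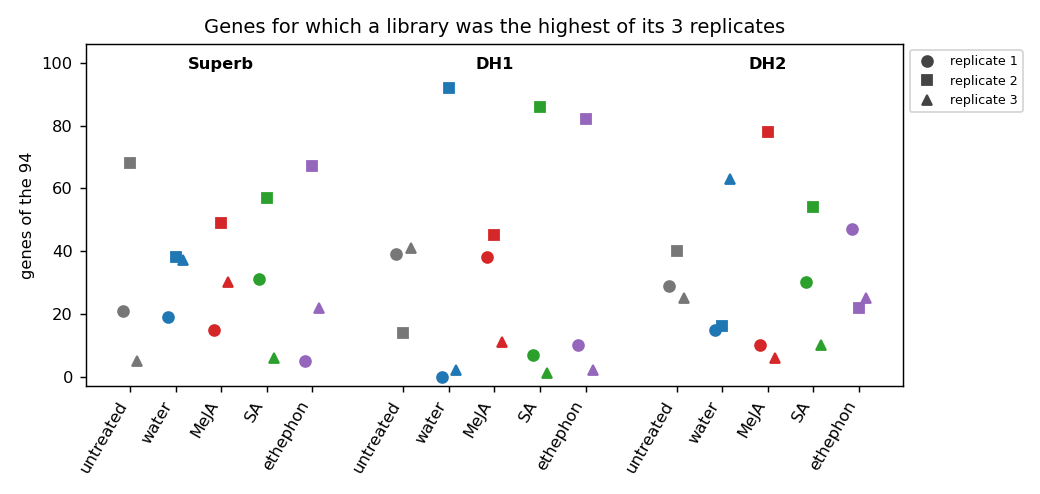
Number of the 94 genes for which each library was the highest of the 3 in its group, by genotype and condition, with symbols for the replicate number. Replicate 2 of DH1 is the highest for 92, 86 and 82 genes after water, SA and ethephon, and replicate 2 of DH2 for 78 after MeJA. The same count over all genes was not made.

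The genes were scattered over the genome. They lay on all wheat chromosomes, with 28 on the A, 33 on the B and 32 on the D subgenome and 1 unplaced, or 29.8, 35.1 and 34.0% of the set beside 33.4, 32.4 and 33.4% of the genes with a water mean of at least 5 CPM. By chromosome group, groups 1 and 4 held 19 and 18 genes, or 20.2 and 19.1% of the set beside 13.1 and 12.9% of those genes, and group 7 held 7, or 7.45% beside 13.9%. No test was made of these shares.

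Some members were close neighbours. By the order of identifiers, 18 of the 94 lay within 5 places of another, in 8 runs. The same share was not worked out for other sets of genes, so whether it is unusual is not known. The longest was on 1D, where 4 of 6 consecutive identifiers belonged to the set. From the first to the last of them the water means in Superb were 6.88, 11.9, 53.2 and 72.2 CPM, up from 0.494, 0.543, 3.14 and 4.29 CPM. Their ratios of MeJA to water in Superb were 1.52, 1.30, 0.982 and 0.888 for the 4 in order. They were 1.92, 1.19, 0.874 and 0.798 in DH1, and 1.46, 1.58, 0.981 and 0.904 in DH2. The identifiers between them rose too, from 0.0436 and 3.73 CPM untreated to 1.96 and 19.5 CPM after water in Superb. They did not belong to the set, since the former stayed under 5 CPM and the latter under 8 times its untreated mean. A pair on 7D separated by 1 identifier rose from means of 8.49 and 7.74 CPM untreated to 240.0 and 162 CPM after water in Superb, while the gene between them stayed at 0 CPM. Reads shared between near-identical copies could not be checked, since how reads with several positions were handled is unknown, and single copies are less certain than their family.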

How the data were processed

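The authors deposited raw counts per gene for 45 libraries of paired-end RNA-seq. Per the submitters' processing notes, STAR 2.5.3a and DESeq2 were used. The sources used here do not give the counting program, the strand setting or the treatment of multiply mapped reads. Of 110790 identifiers, 17811 had 0 counts throughout. Columns were assigned to samples by genotype, treatment and replicate number in their names, with 0 columns unused.

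Levels are CPM from the column totals. Tests used edgeR 4.0.16 in R 4.3.3: filterByExpr over 15 groups (63091 genes, 99.7% of counts), TMM, glmQLFit (legacy=FALSE) with a mean per group over all libraries (30 residual degrees of freedom), glmQLFTest and Benjamini-Hochberg adjustment over all tested genes, with a call at adjusted p under 0.05. Standard errors are the absolute fold change over the square root of F. The test of SA against ethephon was tried on simulated counts with known changes in the SA libraries only. The simulated libraries were independent, and the other comparisons were not covered. Replicate pairs differed beyond sampling noise (chi-square per degree of freedom 2.23 to 19.1), so none was taken as a duplicate. Counting intervals cover counting error only.

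The members and lists were chosen with earlier results of these data known. Named genes are the 2 highest fold changes of the rise, the 2 with the highest CPM after water, and the 2 highest and 2 lowest for MeJA against water. To these come all genes called between SA and ethephon or between genotypes. Genes at the bounds of the rule are given by value only. Alternatives were DESeq2 1.42.0, its size factors, column totals, no filter, a replicate block, omitted libraries and other bounds.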

Additional observations from a re-analysis of the deposited data

How the results depend on the processing

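The rule found 94 genes, and 244 with a rise of at least 4 times, 36 with at least 16 times, 45 with a MeJA ratio of 0.67 to 1.5, and 90 with TMM-scaled sizes, of which 77 were among the 94. Leaving out single libraries gave 79 to 100.

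All 94 genes remained higher at 8 h, for water and for SA with ethephon, under every alternative run. Leaving out single libraries gave 2 to 9 MeJA calls in Superb, 3 to 12 in DH1, 2 to 11 in DH2 and 33 to 39 over the genotypes. It gave 1 to 2 calls for SA against ethephon, 1 to 4 for DH2 against Superb and 2 to 9 for DH1 against DH2. The libraries that moved MeJA counts by over 1.5 times were MeJA replicate 3 and water replicates 1 and 3 of Superb, MeJA replicate 2 and water replicates 1 and 3 of DH1, and all but MeJA replicate 3 of DH2. Counts for DH2 against Superb fell without SA replicate 1 or 3 or ethephon replicate 1 or 3 of DH2, or without SA replicate 2 or 3 or ethephon replicate 1 or 2 of Superb. Column totals in place of TMM gave 14 MeJA calls in Superb and 16 in DH2. Of these, 4 and 2 were higher, beside 5750 and 5993 of all tested genes, and 10 and 14 were lower, beside 10088 and 13404. Without the ethephon libraries that stood apart, DH2 against Superb had 2 calls. Without replicate 2 of water, SA and ethephon in DH1, chosen after seeing the data as were the column totals and the CPM counts without the ethephon libraries that stood apart, DH1 against Superb had 1 call and DH1 against DH2 had 17. Those DH1 libraries were the highest of their group for most of the set, so the direction of that change was fixed by the omission. DESeq2 gave 5 for DH1 against DH2, all lower, beside 2495 lower of all tested genes. The causes of these changes were not tested.

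Replicate numbers did not pair the samples in every comparison. Of 90 same-numbered pairs of groups of a genotype, 36 correlated above 0.1 (mean r = 0.04), and of 45 same-numbered pairs of genotypes under a condition, 39 did (mean r = 0.29, against -0.14 and 16 of 90 for unequal numbers). By condition these were 9 of 9 pairs of equal number for SA, MeJA and untreated libraries, 7 of 9 for water and 5 of 9 for ethephon, so libraries of equal number tended to deviate together across genotypes, and the criterion of every pair above 0.1 was not met for genotype comparisons over SA and ethephon. Tests averaged over genotypes took these libraries as independent, so their p-values may be too small. A replicate block gave 11 MeJA calls in Superb, and 1 call for SA against water, 1 for DH1 against Superb and 8 for DH1 against DH2. In that fit 8391 of all tested genes were higher and 6578 lower for MeJA in Superb, and 354 higher and 35 lower for SA against water. The block was an effect of the number common to all conditions, and a pairing within a condition was not fitted. Named genes lost their call in 45 refits, kept it in 490 and changed direction in 0. Leaving out single libraries ended 0 calls for the rise and MeJA against water, which the choice used. It also ended 0 for SA with ethephon against untreated and for DH1 against DH2. For DH2 against Superb it ended the call of TraesCS7A01G545200 in 12 of 12 refits, TraesCS2B01G406600 in 9, TraesCS2D01G386300 in 8, TraesCS4B01G337600 in 3 and TraesCS5B01G498100 in 0. For SA against ethephon it was 8 of 18 for TraesCS2D01G386300 and 0 for TraesCS2B01G406600. Depth and 3 libraries per group limit what the tests could find among small differences.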
